A study of Mus musculus with 88 samples.

Results

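Tbx2, Tbx3, Tbx4, Tbx5, Tbx18, Tbx20, Pitx1 and Emx2 encode transcription factors that mark where in the embryo a tissue arose. These 8 genes were chosen by name from the 24453 genes of the deposited count table. They were followed in 88 poly(A) RNA libraries from EDL (a fast muscle of the lower hindlimb), gastrocnemius, soleus, tibialis, heart, kidney, liver, lung and spleen. The tissues came from 10 male mice of the strain 100% C57BL/6NTac aged 65 to 85 days, all fasted for 18 h. Of these, 5 mice carried no named alteration (WT) and 5 were labelled Cdh15 KO, lacking M-cadherin, an adhesion protein of muscle precursor cells. Each tissue had 5 libraries per genotype, except WT kidney and WT spleen with 4 each. The sources used here do not describe the KO allele. Each library comes from a single animal, so p-values of KO against WT within a tissue measure the spread between mice. Tests between tissues or muscles compare libraries of the same mice. Their main fits treat these libraries as independent, so those p-values ignore the pairing. The study's title concerns M-cadherin in fetal muscle formation and adult muscle mass, and the design asks how KO and WT differ in each adult tissue.

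T-box proteins share a DNA-binding domain. In the embryo Tbx5 acts in the forelimb and heart, Tbx4 and the homeodomain protein Pitx1 act in the hindlimb, and Tbx2, Tbx3, Tbx4 and Tbx5 act together in the connective tissue of the lung bud. Tbx20 and Tbx18 act in the developing heart, Tbx18 in the outer heart layer and the sinus node, and Emx2, a homeodomain protein, is needed for the urogenital system. Some of these genes are also transcribed in adult tissues that arise from those regions. Libraries of whole tissue do not show which cells carry the transcripts.

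Of the 8 genes, 4 sit in 2 neighbouring pairs. On chromosome 11 of mm10, Tbx2 (chr11:85832615-85841948) and Tbx4 (chr11:85890063-85916097) lie on the plus strand with 48114 bases between them. On chromosome 5, Tbx3 (chr5:119670862-119684724) and Tbx5 (chr5:119834663-119885218) lie on the plus strand, 149938 bases apart. Tbx18 (chr9:87702800-87731260) and Tbx20 (chr9:24740248-24774303) lie on the minus strand of chromosome 9, and Pitx1 (chr13:55825054-55831425) on the minus strand of chromosome 13. Emx2 (chr19:59458690-59465357, plus strand, 3 exons) starts 54 bases from its divergent neighbour Emx2os (chr19:59425104-59458635, minus strand), a non-coding gene. No source used here says whether the counting used strand, but the 2 annotated spans do not overlap.

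The RefSeq promoter table (build GRCm38.p6) held 4 of the 8 genes, Tbx4, Tbx18, Tbx20 and Emx2. For Tbx4 its 250 bases, chr11:85896515-85896764, lie inside the gene span given above and so precede another start than that of the span. The 250 bases before the starts of Emx2 and Tbx20 are shown because these 2 genes were the most restricted to a single tissue in WT mice. Both are written 5′ to 3′ on the gene's own strand, and capitals mark the stretch between the starts of Emx2 and Emx2os.
Emx2, chr19:59458440-59458689, plus strand: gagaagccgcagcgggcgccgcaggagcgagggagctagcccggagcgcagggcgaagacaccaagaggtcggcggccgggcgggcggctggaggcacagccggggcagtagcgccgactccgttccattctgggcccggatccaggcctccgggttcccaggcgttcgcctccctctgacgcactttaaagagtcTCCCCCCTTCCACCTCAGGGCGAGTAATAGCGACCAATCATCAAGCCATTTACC
Tbx20, chr9:24774304-24774553, minus strand: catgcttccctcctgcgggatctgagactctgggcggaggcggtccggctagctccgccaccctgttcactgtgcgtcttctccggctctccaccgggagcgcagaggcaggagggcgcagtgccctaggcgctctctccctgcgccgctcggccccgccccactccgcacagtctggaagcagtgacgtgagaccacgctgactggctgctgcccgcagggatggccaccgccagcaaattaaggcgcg
The Emx2 window was 67.2% G or C with 24 CpG pairs and the Tbx20 window 68.8% with 22, against medians of 52.4% and 6 over the same window of 32851 promoters. The shared stretch before Emx2 holds the letters CCAAT at position -21 from the start. CCAAT or its reverse ATTGG occurs in 33.8% of all these windows. The T-box motif letters AGGTGT, searched on both strands, were in none of the 4 windows and in 11.8% of all windows. These are descriptions of letters and not of bound sites.

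Levels are given as CPM, a gene's count scaled to the total of its library, with the SD over mice. RPKM, which also divides by the exon length, is used to compare genes. Library totals ran from 8205964 to 25144410 counts with a median of 19024260, so that 3 reads, the limit taken for a count of 0, corresponded to 0.361 CPM in the shallowest lung library. Cdh15 stood at 15.1 to 19.1 CPM on average in the 4 WT muscles and at 1.4 to 2.93 CPM in the KO muscles, and no KO muscle library overlapped a WT one. The summed defining markers of each labelled tissue were high in all its libraries, from at least 1977 CPM (B cell genes in spleen) to at least 65365 CPM (hepatocyte genes in liver). In bulk tissue, fewer cells of a type and less RNA per cell cannot be told apart. In 2 muscles libraries stood apart. The EDL library of KO mouse 3779417 had a nerve sheath marker sum of 72.3 CPM against 176 to 257 in the other 9 EDL libraries and an adipocyte marker sum of 7.94 against 32.0 to 137. In soleus the slow fibre marker sum ran from 5903 to 13737 CPM in WT and from 11905 to 24900 CPM in KO mice. The highest of these, the soleus of KO mouse 3805666, had the fast myosin gene Myh4 at 89.7 CPM against 27368 to 65547 in the other 9 soleus libraries. Results that rest on these libraries are given with those values.

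Tissue restriction was high for most of these genes. The index tau, which is 0 for equal levels in all 9 tissues and 1 for a gene found in a single tissue, was 0.992 for Tbx20, 0.983 for Emx2, 0.978 for Tbx4, 0.947 for Tbx2, 0.880 for Tbx5, 0.871 for Tbx3, 0.800 for Tbx18 and 0.733 for Pitx1 in WT mice. Their median was 0.914, beside 0.728 over the 16309 genes that reached 1 CPM in some tissue. In KO mice the medians were 0.919 and 0.729. Pitx1 stayed under 1 CPM in every tissue, so its index rests on few reads. The order of tissues was taken from WT mice, and the highest tissue was then tested against the next in KO mice with exact 2-sided permutation tests, 8 in all. In 6 of 8 genes the WT order held with no overlap (exact p = 0.00794 each, the smallest that 5 against 5 allows, Benjamini-Hochberg adjusted p = 0.0106). The exceptions were Tbx5 (exact p = 0.627) and Pitx1 (exact p = 0.0873). The 2 tissues of a test came from the same 5 KO mice, and the tests did not pair their libraries. These p-values therefore ignore that pairing. No share over all genes is given beside the 6 of 8, and nothing is read from it about these genes.

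**Figure D1:**
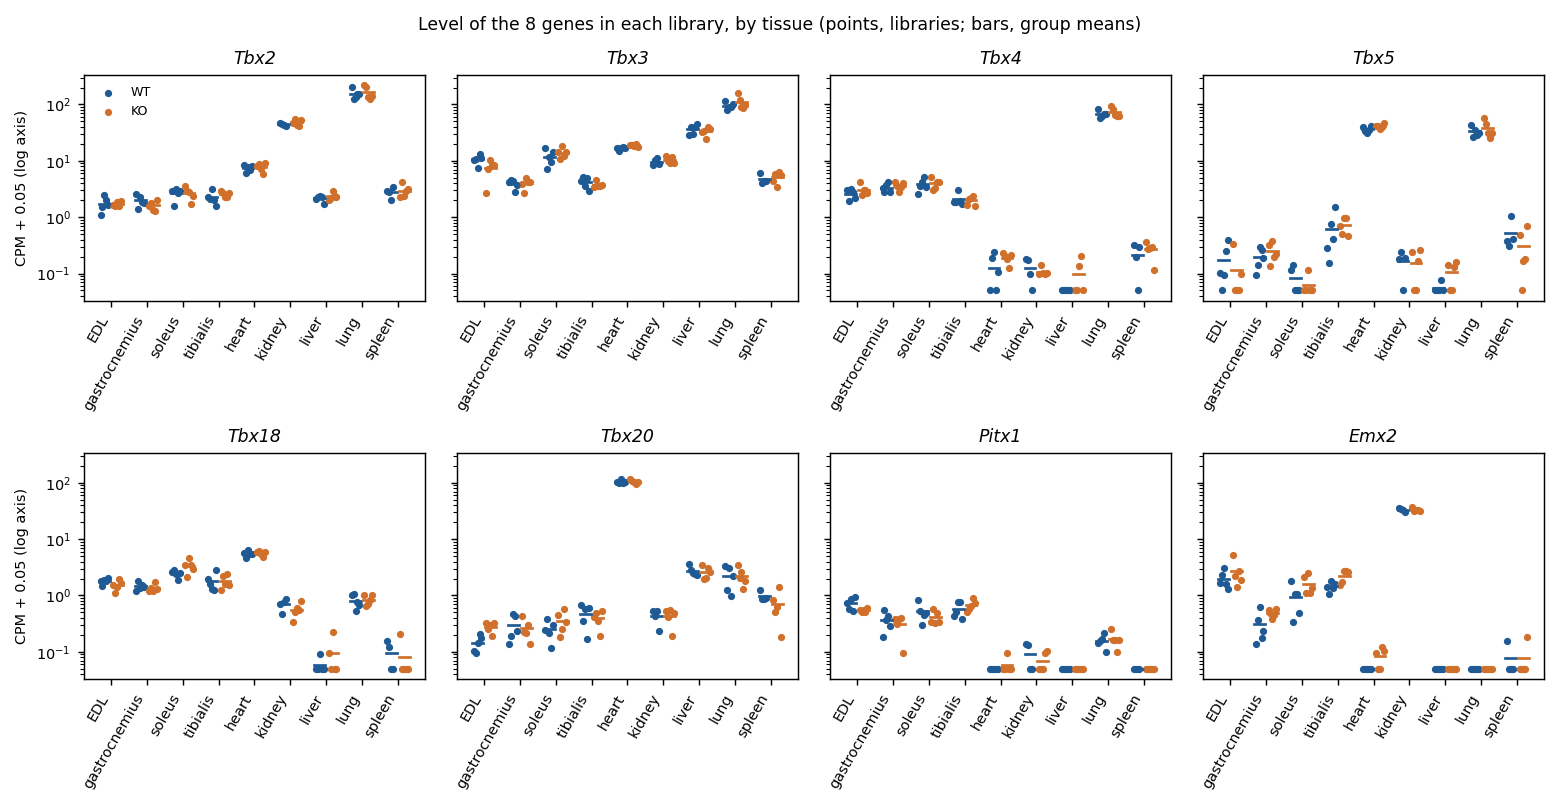
Level (CPM + 0.05, log axis) of each of the 8 genes in the 9 tissues, with a point per library, bars for group means and colour for genotype. Tbx2, Tbx3 and Tbx4 are highest in lung, Tbx5, Tbx18 and Tbx20 in heart, Emx2 in kidney and Pitx1 in the muscles at under 1 CPM.

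Lung had the highest levels of Tbx2, Tbx3 and Tbx4. Tbx2, a transcriptional repressor, stood at 123, 138, 150, 155 and 206 CPM in the 5 WT lungs and at 127, 137, 140, 207 and 223 CPM in the 5 KO lungs. Its next tissue, kidney, had 41.4, 43.5, 44.9 and 47.1 CPM in WT mice, under every lung library. The lung level was 3.48 times the kidney level in KO mice. Heart followed at 7.35 ± 0.990 CPM (SD, n = 5), and each muscle, liver and spleen averaged from 1.69 to 2.76 CPM in WT mice.

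Tbx3, a repressor closely related to Tbx2, stood at 78.5, 89.2, 91.6, 101 and 116 CPM in WT lung and at 85.3, 89.7, 96.3, 120 and 158 CPM in KO lung. Liver was next at 36.8 ± 7.23 CPM in WT mice (SD, n = 5), and in KO mice lung was 3.30 times liver. Unlike Tbx2, Tbx3 was found at several CPM in every tissue, down to 3.89 CPM in WT gastrocnemius. Tbx4, an activator used in lung and hindlimb, stood at 56.9, 62.8, 67.8, 68.9 and 82.3 CPM in WT lung and at 62.1, 62.9, 64.5, 84.7 and 94.3 CPM in KO lung. The next tissue was soleus, and KO lung was 18.5 times KO soleus. Liver of WT mice held no Tbx4 read, so that lung was at least 368-fold higher against a limit of 3 reads per library.

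Tbx5, an activator of the cardiac programme, was shared by lung and heart. Heart held 31.2, 33.2, 34.6, 39.7 and 42.3 CPM in WT and 36.9, 39.6, 41.8, 42.1 and 46.0 CPM in KO mice. Lung held 26.4, 29.2, 31.4, 35.5 and 43.1 CPM in WT and 25.5, 30.7, 31.3, 45.9 and 57.0 CPM in KO mice. The ranges of heart and lung overlapped in both genotypes. Outside these 2 organs the highest mean was 0.619 CPM, in tibialis over both genotypes, where libraries held 2 to 15 reads.

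Per exon length, the WT lung order was Tbx2 at 43.5, Tbx4 at 22.6, Tbx3 at 20.4 and Tbx5 at 8.41 RPKM. In edgeR's quasi-likelihood test of lung against the mean of kidney, liver and spleen, 6 of 8 genes tested were higher in WT and 6 of 7 in KO mice (Benjamini-Hochberg adjusted p under 0.05). Of all genes tested, 78.6% passed in WT and 79.7% in KO mice, so the members' share is close to the background and nothing is read from it. In WT mice the log2 differences were 3.81 for Tbx2 and 2.20 for Tbx3, beside a median of -0.10 over all genes. Tbx4, Tbx5 and Tbx18 were called too, with no fold given, since some or all liver libraries held none of their reads. Pitx1, the last called, had 1 to 3 reads per lung library. Tbx20 was not called in WT mice (0.27, adjusted p = 0.249) and was called higher in KO mice (0.50, adjusted p = 0.0254), where Pitx1 was not tested, so the sets called in the 2 genotypes differ. The lung partner list, genes known to act with these factors in lung growth such as Nkx2-1 and Foxf1, had 8 of 9 genes higher and 1 lower.

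The lungs of 3 mice stood apart from the other 7. WT mouse 3793543 and KO mice 3793546 and 3779417 were the 3 highest for Tbx2, and the same 3 were highest for Tbx3, Tbx4 and Tbx5. Tbx2 was at least 206 CPM in these 3 lungs and at most 155 in the other 7, and for Tbx4 the corresponding values were 82.3 and 68.9 CPM. For Tbx3 they were 116 and 101 CPM and for Tbx5 43.1 and 35.5 CPM, while for Tbx18 and Tbx20, both low in lung, 2 of the 3 highest mice were in this set. The 3 mice were 82 and 85 days old, and another mouse of similar age, 83 days, was among the other 7. Since the 3 were picked by these levels, no test was made between them and the rest. The split was not limited to T-box genes. Meis1 was at 61.0 to 65.8 CPM in the same 3 lungs and at 41.2 to 51.4 CPM in the other 7. Tbx1 overlapped, at 12.1 to 12.9 against 10.9 to 14.6 CPM. Whether the split is particular to any set of genes was not tested.

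Some of the cell type marker lists separated the same 3 lungs from the other 7, and most lists overlapped. The summed mural cell (pericyte) markers were 321 to 375 CPM in the 3 against 215 to 310 in the other 7. Nerve sheath markers were 352 to 384 against 278 to 327 CPM, and B cell markers 85.7 to 105 against 40.8 to 80.7 CPM. Slow fibre markers were 35.3 to 37.8 against 29.3 to 33.9 CPM. Lung epithelial markers were lower, at 36998 to 43699 against 43890 to 50679 CPM. Fibroblast markers overlapped, at 1780 to 2089 against 1755 to 2413 CPM, as did airway and vascular smooth muscle markers, at 929 to 965 against 767 to 944 CPM. The remaining lists overlapped too. The part of any of these markers in the levels of the 4 T-box genes was not tested. Over all 10 mice each of the 6 pairs of these genes passed a permutation test of Pearson r (adjusted p from 0.00012 to 0.00056), but no r is given for them because 3 lungs formed a group of their own. The other 7 are what a cut on Tbx2, made after the values were seen, leaves, and pairs of other genes were not compared. Among these 7, Tbx2 and Tbx4 had Pearson r = 0.934 (exact permutation p = 0.00198, adjusted p = 0.0119 over 6 pairs) and Spearman rho = 0.893 (exact permutation p = 0.0123). Without the 2 mice farthest from the median, r was 0.845. The other 5 pairs did not pass, with adjusted p from 0.0726 to 0.409 in the exact permutation tests. Whether the pairs differ from each other was not tested.

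**Figure D2:**
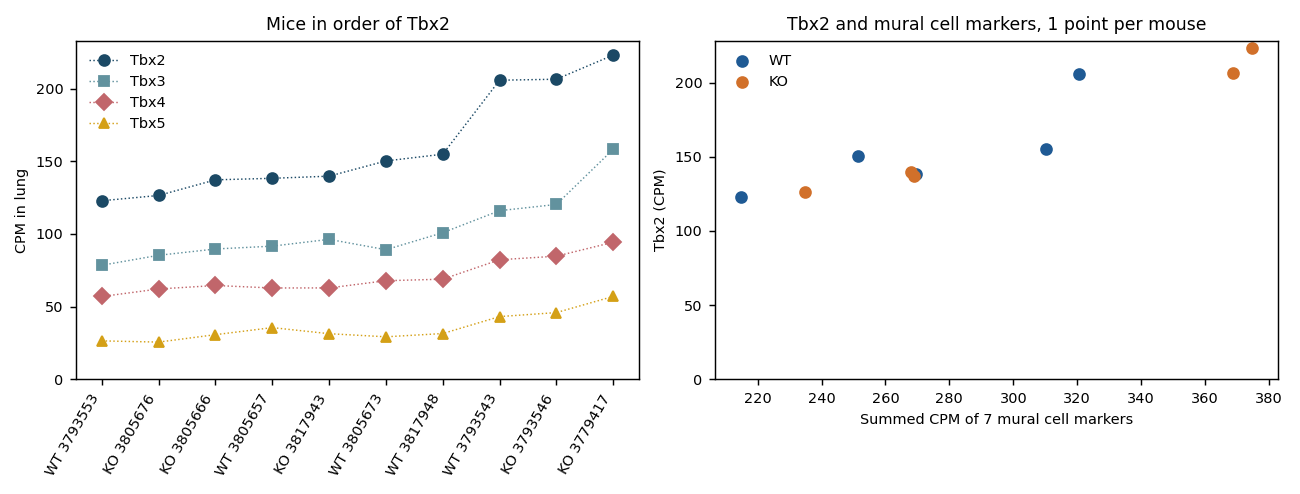
Left, CPM of Tbx2, Tbx3, Tbx4 and Tbx5 in the 10 lung libraries, with mice in order of Tbx2; right, Tbx2 against the summed CPM of the 7 mural cell markers, with a point per mouse and colour for genotype. The 3 lungs with Tbx2 of at least 206 CPM are also the highest for the other 3 genes.

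Heart was marked by Tbx20, Tbx5 and Tbx18. Tbx20, a cardiac factor needed in adult heart muscle cells, stood at 99.1, 101, 104, 104 and 115 CPM in WT and at 96.1, 104, 105, 106 and 117 CPM in KO hearts. These 10 libraries lay within a narrow range, and liver, the next tissue, averaged 2.69 ± 0.546 CPM in WT mice (SD, n = 5). In KO mice heart was 41.1 times liver. Skeletal muscle libraries held 1 to 13 Tbx20 reads each. Tbx18, of the outer heart layer and its descendants, stood at 4.62, 5.42, 5.44, 5.60 and 6.41 CPM in WT hearts. It averaged 5.64 ± 0.528 CPM in KO hearts (SD, n = 5), 1.73 times the level of KO soleus.

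Against the mean of the 4 skeletal muscles, WT heart was higher in Tbx20 by a log2 difference of 8.56 (SE 0.14), in Tbx5 by 7.68 (SE 0.20, with 0 to 15 reads in a muscle library), in Tbx2 by 1.44 (SE 0.12), in Tbx18 by 1.26 (SE 0.13) and in Tbx3 by 0.93 (SE 0.13). Tbx4, Pitx1 and Emx2 were lower. Heart libraries held 0 to 4 Tbx4 reads, and those of WT mice held none of Pitx1 or Emx2. All 8 genes passed edgeR's test in WT mice and 7 of 7 tested in KO mice, where 73% and 74.3% of all genes did. In KO mice the Tbx20 and Tbx5 log2 differences were 8.26 and 8.24. Of the heart partner list, genes that act with Tbx5 and Tbx20 such as Gata4, Nkx2-5 and Nppa, 13 of 14 tested were higher and 1 lower, in WT as in KO mice.

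Kidney was marked by Emx2 and carried the second highest level of Tbx2. Emx2 stood at 30.7, 33.2, 34.9 and 35.0 CPM in WT kidneys and at 31.0, 31.9, 32.3, 32.4 and 37.6 CPM in KO kidneys, and the genotypes overlapped. WT heart, liver and lung held no Emx2 read, so that kidney was at least 223-, 182- and 171-fold higher against a limit of 3 reads per library. EDL was the next tissue, and KO kidney was 12.6 times KO EDL. Emx2os was also highest in kidney, with 4.48 ± 0.38 CPM in WT mice (SD, n = 4). Over both genotypes it was under Emx2 in kidney, EDL and tibialis but not in soleus, at 1.66 against 1.24 CPM, or gastrocnemius, at 0.465 against 0.349 CPM. The paralogue Emx1 was at 14.3 ± 0.98 CPM in WT kidney and at 0 in the other tissues. Per exon length, Emx2 and Tbx2 were alike in WT kidney, at 12.9 and 12.4 RPKM.

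Of 8 genes tested in kidney against the mean of liver, lung and spleen, 4 were higher and 2 lower in WT mice (edgeR), and in KO mice 3 of 7 were higher and 4 lower. The background was 73.6% of genes in WT and 76.1% in KO mice. Tbx2 (2.45 in WT and 2.44 in KO mice), Emx2 and Tbx18 were higher and Tbx3 and Tbx20 lower in both genotypes, while Pitx1, with 0 to 2 reads per kidney library, was also higher in WT mice. Of 13 genes of the kidney partner list, such as Pax2 and Pax8 of the kidney epithelium, 8 were higher and 1 lower in WT, and 9 and 1 in KO mice.

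The 4 hindlimb muscles differed in Tbx3 and Emx2. Tbx3 stood at 7.54, 10.3, 10.7, 11.1 and 13.2 CPM in WT EDL and at 7.0, 9.46, 11.4, 14.2 and 17 CPM in WT soleus. It stood at 2.81, 3.75, 4.12, 4.33 and 4.44 CPM in WT gastrocnemius and at 2.89, 3.48, 4.32, 4.86 and 5.18 CPM in WT tibialis. EDL and soleus thus formed a high pair and gastrocnemius and tibialis a low pair, with no overlap between the pairs in WT mice. The log2 differences were 1.36 (SE 0.21, edgeR adjusted p = 0.000343) between EDL and gastrocnemius and 1.28 (SE 0.21, adjusted p = 0.000908) between EDL and tibialis. Soleus exceeded tibialis by 1.37 (SE 0.21, adjusted p = 0.000217) and gastrocnemius by 1.45 (SE 0.21, adjusted p = 4.17e-05).

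KO mice had the same high and low muscles except in a single library. KO EDL held 2.69, 7.21, 8.38, 8.50 and 10.2 CPM and KO soleus 10.8, 12, 14.1, 14.5 and 18.3 CPM of Tbx3. KO gastrocnemius held 2.63, 3.88, 4.10, 4.10 and 4.99 CPM and KO tibialis 3.45, 3.52, 3.55, 3.63 and 4.45 CPM. The low EDL value, 2.69 CPM, was that of KO mouse 3779417 and lay among the tibialis and gastrocnemius libraries. In this same library the limb factor En1 was at 0.280 CPM against 2.55 to 8.43 in the other EDL libraries, and Tbx1 at 30.2 CPM, the highest of all EDL libraries. The KO log2 difference between EDL and tibialis, 0.92 (adjusted p = 0.0191), was 1.11 (adjusted p = 0.000645) without this mouse, and the difference between EDL and gastrocnemius, 0.82 (adjusted p = 0.0186), was 1.02. The first call was lost without KO mouse 3805666, 3805676 or 3817943 (0.77 to 0.86, edgeR adjusted p from 0.0993 to 0.116) and the second without any KO mouse other than 3779417 (0.67 to 0.80, adjusted p from 0.0509 to 0.104). Soleus exceeded EDL in KO mice (-0.80 for EDL against soleus, edgeR adjusted p = 0.00539), where WT mice had a difference of -0.09 that was not called. The KO difference includes 2 libraries that stood apart, the EDL of 3779417 (2.69 CPM) and the soleus of 3805666 (18.3 CPM). Whether the genotype difference of Tbx3 varies between muscles was not called (edgeR unadjusted p = 0.124, adjusted p = 0.732).

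Emx2 had another order, with the highest means in EDL and tibialis and the lowest in gastrocnemius. It stood at 1.26, 1.55, 1.62, 2.26 and 2.97 CPM in WT EDL, at 1.02, 1.32, 1.38, 1.56 and 1.77 CPM in WT tibialis, at 0.292, 0.438, 0.992, 1.03 and 1.78 CPM in WT soleus, and at 0.0877, 0.128, 0.187, 0.321 and 0.581 CPM in WT gastrocnemius. No gastrocnemius library reached those of EDL or tibialis, while soleus overlapped its neighbours and did not pass against tibialis (-0.76 in WT and -0.69 in KO mice, edgeR adjusted p = 0.231 and 0.0795). The log2 difference was 2.78 between EDL and gastrocnemius (SE 0.44, edgeR adjusted p = 0.000326) and -2.36 between gastrocnemius and tibialis (SE 0.46, adjusted p = 0.0013). In KO mice the same differences were 2.41 and -2.28 (edgeR adjusted p = 8.38e-05 and 0.000184). KO EDL mouse 3779417 had 5.09 CPM, the highest Emx2 of any muscle library, and the KO difference between EDL and soleus, 0.82 (adjusted p = 0.0295), was not called without it (0.55, adjusted p = 0.108), nor without 3793546, 3805676 or 3817943 (0.70 to 0.84, adjusted p from 0.0746 to 0.134).

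Tbx4 and Tbx18 differed by less. Tbx4 was lowest in tibialis, at 1.67, 1.78, 1.80, 1.92 and 2.96 CPM in WT mice, against 3.30 ± 0.589 CPM in gastrocnemius and 3.76 ± 0.95 CPM in soleus (SD, n = 5). EDL, at 2.58 ± 0.522 CPM, overlapped tibialis and was not called against it (0.29 in WT and 0.54 in KO mice, edgeR adjusted p = 0.341 and 0.0568). Tibialis was lower than gastrocnemius by a log2 difference of 0.73 and lower than soleus by 0.79 (edgeR adjusted p = 0.0113 and 0.0102), and in KO mice by 0.92 and 0.85 (adjusted p = 0.0011 and 0.000857). The 6 nerve sheath markers had a summed level of 47.3 to 95.2 CPM in WT tibialis against 135 to 285 CPM in WT gastrocnemius. In WT EDL, where Tbx4 overlapped tibialis, the sum was 176 to 253 CPM, and in WT soleus it spanned that of tibialis, at 42.5 to 451 CPM. Of these markers, 4 of 6 were called between WT gastrocnemius and tibialis. Their part was not tested. Tbx18 was highest in soleus, at 1.85, 2.40, 2.43, 2.58 and 2.77 CPM in WT and at 2.06, 2.88, 3.38, 3.49 and 4.50 CPM in KO mice, the highest in mouse 3805666. It exceeded gastrocnemius there in both genotypes (-0.64 and -1.08 for gastrocnemius against soleus, edgeR adjusted p = 0.0149 and 8.88e-05). The WT call of Tbx18 was lost without mouse 3793543 (-0.55, adjusted p = 0.103) or 3805657 (-0.61, adjusted p = 0.0599), and that of Tbx4 between soleus and tibialis without WT mouse 3805673 (0.62, adjusted p = 0.0825).

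The classical hindlimb factor Pitx1 was barely detected in adult hindlimb muscle. Over both genotypes it averaged 0.590 CPM in EDL, 0.574 in tibialis, 0.415 in soleus and 0.288 in gastrocnemius, from 1 to 21 reads per library. Only EDL against gastrocnemius passed in WT mice (1.04, SE 0.34, adjusted p = 0.0443), and leaving out any WT mouse other than 3793553 ended that call (0.83 to 1.24, edgeR adjusted p from 0.063 to 0.222). Liver and spleen held no Pitx1 read. Tbx2 was called between no pair of muscles in WT mice and between 4 pairs in KO mice, with log2 differences from -0.52 to -0.67 (EDL and gastrocnemius each under soleus and tibialis). Each of these 4 calls was lost without KO mouse 3779417 or 3793546 (-0.41 to -0.62, edgeR adjusted p from 0.0551 to 0.0926), and some without 3805666 or 3817943.

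Over the 6 pairs of muscles, 12 of 36 tests of these genes passed in WT and 18 of 30 in KO mice, and 11 pairs of gene and comparison passed in both, each in the same direction. These 11 are 11 of the 12 WT and 11 of the 18 KO calls. No share over all genes is given for calls that pass in both genotypes, and nothing is read from the 11 about these genes. The background differed widely between pairs. In WT mice it was 13.2% of genes for EDL against gastrocnemius (3 of 6 members called), 15.6% for EDL against soleus (1 of 6), 13% for EDL against tibialis (1 of 6), 29.6% for gastrocnemius against soleus (3 of 6), 22.1% for gastrocnemius against tibialis (2 of 6) and 10.8% for soleus against tibialis (2 of 6). In KO mice it was 21.2% (2 of 5), 40.1% (4 of 5), 13.3% (2 of 5), 56.4% (4 of 5), 28.2% (3 of 5) and 40.1% (3 of 5) in the same order. With the mouse as a block, 3 members were called between WT EDL and soleus in place of 1, with Tbx2 (-0.55, edgeR adjusted p = 0.0435) among the added genes.

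**Figure D3:**
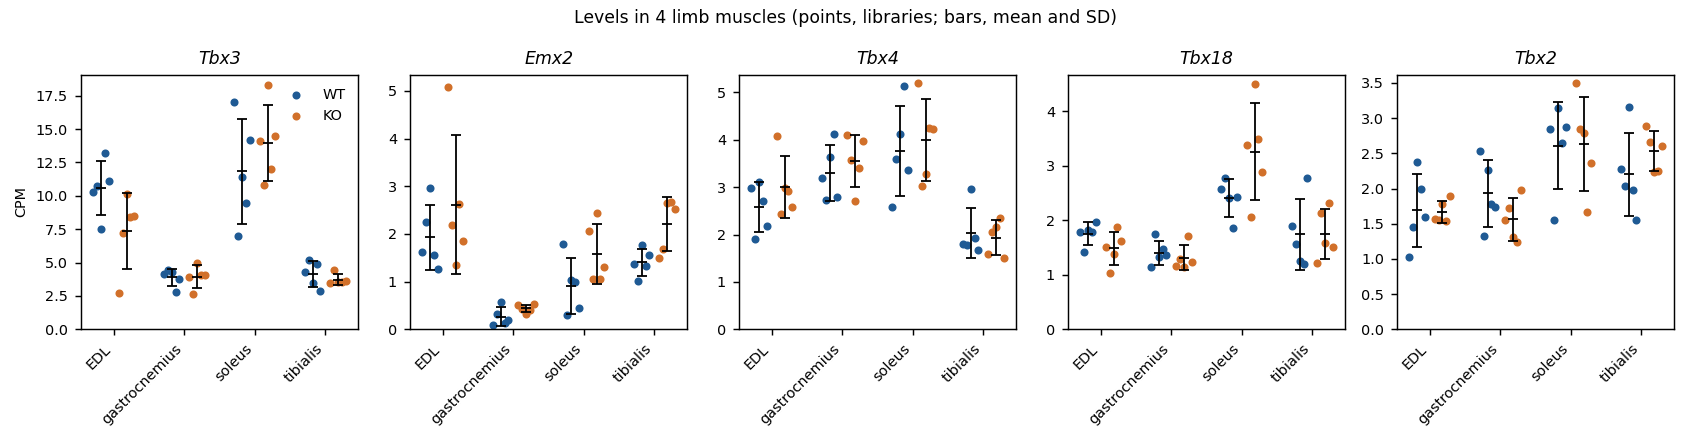
CPM of Tbx3, Emx2, Tbx4, Tbx18 and Tbx2 in the 40 muscle libraries, by muscle and genotype, with points for libraries and bars for the group mean and SD. Tbx3 is high in EDL and soleus, Emx2 in EDL and tibialis, and the low Tbx3 and high Emx2 points of KO EDL both belong to mouse 3779417.

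Relatives outside these 8 genes also differed between the muscles. Tbx15, a T-box gene of fast glycolytic fibres, stood at 306 CPM on average in WT EDL and at 185 to 223 CPM on average in the other 3 muscles. Tbx1 was highest in tibialis at 30.2 ± 3.34 CPM (SD, n = 5) and lowest in gastrocnemius at 2.52 CPM, a log2 difference of 3.54 between them in WT mice. Between WT EDL and gastrocnemius, Tbx1 and Tbx15 were higher in EDL, by log2 differences of 1.68 and 0.52, and the limb partner list had 1 of 11 genes higher and 2 lower. En1 was higher in EDL, gastrocnemius and soleus than in tibialis by log2 differences of 1.58, 2.20 and 2.26.

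None of the 8 genes passed the genotype test in any tissue. Of 41 tests of a member in a tissue, edgeR called 0, with 3 at an unadjusted p under 0.05, and DESeq2 called 0. The log2 fold changes of KO against WT ran from -0.53 to 0.78, with SEs from 0.0488 to 0.43, and 27 of 41 were above 0. In 50 pairs of gene and tissue with at least 10 reads in some library, 0 were without overlap between genotypes. No share over all genes is given for this count. Over all genes the shares called were 0.0081% in tibialis, 0.00792% in gastrocnemius, 0.00777% in EDL and 0.00771% in soleus, a single gene in each, and 0% in heart, kidney, liver, lung and spleen. At an unadjusted p under 0.05, edgeR had 2235 genes in soleus, 590 in EDL, 246 in gastrocnemius and 219 in tibialis, and DESeq2 called 165, 4, 2 and 1 there. In the other tissues edgeR had 421 genes in heart, 478 in kidney, 194 in liver, 313 in lung and 118 in spleen, and DESeq2 called 0, 4, 0, 0 and 0 there. The intervals that follow describe the estimates and are not the smallest difference that would have been called. A call also had to pass the adjustment over all genes tested. Emx2 in tibialis, with an approximate 95% interval of 0.28 to 1.11, was not called. For Tbx20 in heart the log2 fold change was 0.02 (approximate 95% interval -0.08 to 0.12), for Tbx4 in lung 0.11 (-0.13 to 0.36), and for Emx2 in kidney -0.05 (-0.20 to 0.09). The intervals take the SE times a normal quantile and are narrower than the F test implies. That of Tbx18 in soleus, 0.03 to 0.73, leaves out 0 although its unadjusted p was 0.0574 (edgeR quasi-likelihood F test).

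The 3 tests with an unadjusted p under 0.05 were Emx2 in tibialis and Tbx5 and Tbx3 in heart. Emx2 in tibialis stood at 1.49, 1.69, 2.53, 2.65 and 2.68 CPM in KO against 1.02, 1.32, 1.38, 1.56 and 1.77 CPM in WT mice, with overlap (log2 fold change 0.70, SE 0.21, edgeR unadjusted p = 0.006, adjusted p = 1). Tbx5 in heart had 0.19 (SE 0.07, unadjusted p = 0.0129, adjusted p = 0.999) and Tbx3 in heart 0.18 (SE 0.07, unadjusted p = 0.0173, adjusted p = 0.999). Tbx3 stood at 17.3, 17.9, 18.9, 19.3 and 20.2 CPM in KO hearts and at 14.9, 16.5, 16.7, 17.2 and 17.8 CPM in WT hearts. The summed atrial muscle markers of the same hearts ran from 559 to 1105 CPM in KO and from 368 to 775 CPM in WT mice, with a median log2 fold change of 0.60 over 5 genes of which 0 were called. Ventricular markers ran from 36121 to 39564 CPM in KO and from 37824 to 39081 CPM in WT hearts. Their part in the levels of Tbx5 and Tbx3 was not tested.

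Emx2 had a positive log2 fold change in each of the 3 muscles where it was tested. It was 0.43 in EDL (SE 0.34), 0.70 in tibialis and 0.78 in soleus (SE 0.43, edgeR adjusted p = 0.349), while gastrocnemius, with 2 to 12 reads per library, averaged 0.437 CPM in KO and 0.261 CPM in WT mice and was not tested. Without KO mouse 3779417 the EDL value was 0.05. The soleus value was 0.58 (adjusted p = 0.623) without KO mouse 3805666. For the mean log2 level of the 4 muscles of each mouse, limma gave 0.43 (SE 0.12, unadjusted p = 0.0035, adjusted p = 1) on the scale of log2(CPM + 0.5), which understates low genes, and 0 of 8 members passed there, where 0.00638% of all genes did. The test of whether the genotype difference varies between muscles called 0 of 7 members in edgeR (adjusted p from 0.732 to 0.995) and 0% of all genes, with 1090 genes at an unadjusted p under 0.05, and DESeq2 called 0. Tbx3 in EDL was at -0.53 (SE 0.28, unadjusted p = 0.0867) and at -0.32 without KO mouse 3779417.

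**Figure D4:**
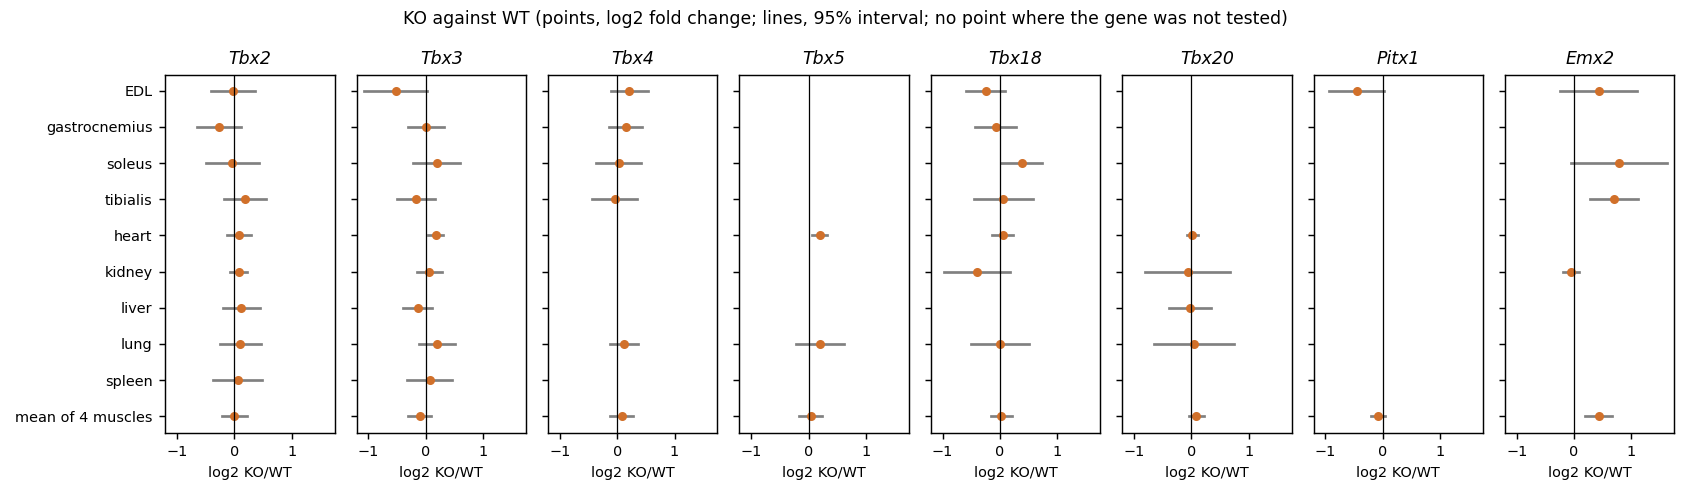
Log2 fold change of KO against WT for each member tested in each tissue, with a last row for the mean of the 4 muscles. Lines give an approximate 95% interval, the SE times a normal quantile, which is narrower than the test implies. The line of Tbx18 in soleus leaves out 0 although its unadjusted p was 0.0574 (edgeR quasi-likelihood F test). None of the 41 tests in single tissues passes the adjusted threshold, and the values run from -0.53 to 0.78.

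In soleus 3 of 6 members were related to the slow fibre marker sum by Pearson r over all 10 libraries. By the adjusted p of Pearson r, none of the 6 relations passed without the soleus of KO mouse 3805666. No share over all genes is given for this relation, so the 3 of 6 is not read as a trait of these genes. Across the 10 soleus libraries Emx2 had Pearson r = 0.868 with the slow fibre marker sum (permutation p = 0.00114, adjusted p = 0.00684 over 6 relations; Spearman rho = 0.939, permutation p = 0.0002). Tbx18 had r = 0.860 (permutation p = 0.00498, adjusted p = 0.0124, rho = 0.758, permutation p = 0.0146) and Tbx3 r = 0.782 (permutation p = 0.00622, adjusted p = 0.0124, rho = 0.709, permutation p = 0.0263). Without the 2 libraries farthest from the median sum, r was 0.698 for Emx2, 0.837 for Tbx18 and 0.513 for Tbx3. The library of KO mouse 3805666 had the highest slow fibre sum, Emx2 (2.43 CPM), Tbx18 (4.50 CPM) and Tbx3 (18.3 CPM) of the 10. Without it, an alternative added after seeing the data, r over 9 mice was 0.781 for Emx2 (exact permutation p = 0.0102, adjusted p = 0.0613), 0.675 for Tbx18 (exact permutation p = 0.0494, adjusted p = 0.103) and 0.668 for Tbx3 (exact permutation p = 0.0516, adjusted p = 0.103). Spearman rho over these 9 mice was 0.917 for Emx2 (exact permutation p = 0.00131), 0.667 for Tbx18 (exact permutation p = 0.0589) and 0.6 for Tbx3 (exact permutation p = 0.0968), all unadjusted. Within WT and within KO mice, 5 libraries each and too few for a test, r was 0.845 and 0.852 for Emx2, 0.900 and 0.910 for Tbx3, and 0.252 and 0.933 for Tbx18. Tbx2, Tbx4 and Pitx1 did not pass (permutation tests, adjusted p from 0.707 to 0.711). These relations were chosen after the values were seen, and the part of fibre makeup in the KO and WT levels was not tested.

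**Figure D5:**
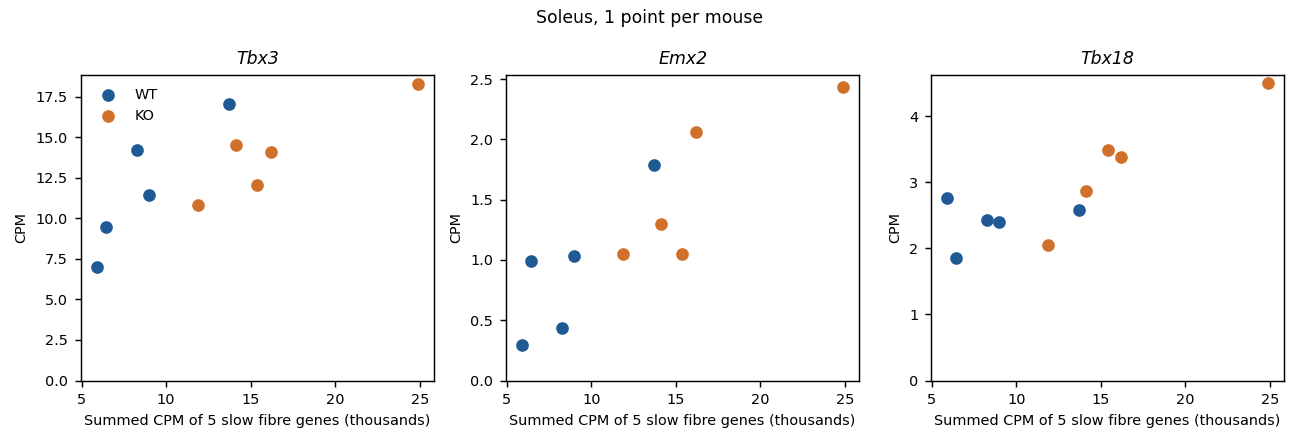
CPM of Emx2, Tbx18 and Tbx3 in the 10 soleus libraries against the summed CPM of the slow fibre markers Myh7, Tnni1, Tnnt1, Tnnc1 and Myh2, with colour for genotype. WT libraries lie between 5903 and 13737 CPM on the horizontal axis and KO libraries between 11905 and 24900 CPM, where the point at 24900 CPM is KO mouse 3805666.

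The genes most like each member across the 88 libraries were named by Pearson r of log2(CPM + 1) among 16317 genes. These values describe tissue patterns, since the libraries share mice and tissues, and carry no test. Tbx2 was most like Grhl2 (0.989), an epithelial transcription factor, with Cyb561 (0.983) and Gm20554 (0.981). Tbx4 was most like Scn3b (0.961), Slc6a2 (0.958) and Tekt1 (0.947), and Tbx3 like Prdx6 (0.925) and Tmtc2 (0.923). Tbx5 was most like Ptprn (0.975), Fut2 (0.972) and Myzap (0.969). Tbx20 was most like Mybpc3 (0.971), the cardiac myosin-binding protein, LOC102636514 (0.971) and D830005E20Rik (0.968), and Tbx18 like Rcan2 (0.962) and the potassium channel gene Kcna5 (0.952). Emx2 was most like Baiap2l2 (0.954) and the homeobox genes Hoxd11 (0.952) and Hoxd4 (0.945), and Pitx1 like Dusp26 (0.909), Atp1b4 (0.906) and Slc8a3 (0.900).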

How the data were processed

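Poly(A) RNA was prepared with MagMax and the KAPA_Stranded_mRNA-Seq kit and assigned to mm10, per the labels' protocols and the submitters' processing notes. No source used here names the aligner, the counter or its use of strand. The deposited expected counts per gene (85.6% whole numbers) were rounded for the fits, although the design had foreseen whole counts. The authors' deposited RPKM values equal those counts scaled by exon length and by library total. A total of 22 marker sequences that name no gene, at most 0.0323% of a library, were left out. No 2 replicate libraries agreed within sampling noise (172 pairs, smallest chi-square per gene 5.05).

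Groups came from the sample titles. Genes were tested with edgeR 4.0.16 in R 4.3.3 (TMM, filterByExpr with a minimum count of 10, quasi-likelihood F test, Benjamini-Hochberg over all genes tested, threshold 0.05), the mean of 4 muscles with limma 3.58.1, and DESeq2 1.42.0 was an alternative. Each genotype test used the libraries of a single tissue, the muscle pairs the 20 muscle libraries of a genotype, and the tissue contrasts all libraries of a genotype. Permutation tests used scipy 1.17.1. The fits were tested on simulated data. Libraries of a mouse share an animal, which the labels' animal number gives. Over 60 pairs of muscle libraries of a mouse, the deviations from group means had a mean correlation of 0.216, and 49 pairs were above 0.1. Alternatives were other size factors, no filter, DESeq2, the mouse as a block, age as a covariate, other pseudocounts and leaving out each mouse.

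All 8 members are named throughout. Other genes named are the 3 most alike per member, family relatives, neighbours and listed partners. Members, lists and tests were chosen with earlier results of these data known. En1 in the EDL of a single mouse, the lung and the soleus patterns were singled out after their values were seen. Some genes that this rule names are not reported here.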

Additional observations from a re-analysis of the deposited data

Results flagged for a closer look

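In 7 of 96 groups examined, each with at least 10 reads in some library, a single library lay far from the rest of its group by Dixon's criterion, where about 5% of groups would by chance. Each was the highest of its group. Tbx3 reached 4.45 CPM in the tibialis of KO mouse 3793546 (next 3.63) and 6.12 CPM in the spleen of WT mouse 3793543 (next 4.39). The same WT spleen held the highest Tbx20, 1.19 CPM (next 0.855), and Tbx5 reached 0.990 CPM in the spleen of WT mouse 3805673 (next 0.352). Tbx4 was at 2.96 CPM in the tibialis of WT mouse 3805657 (next 1.92) and Tbx18 at 1.70 CPM in the gastrocnemius of KO mouse 3805676 (next 1.29). Emx2 was at 37.6 CPM in the kidney of KO mouse 3779417 (next 32.4).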

How the results depend on the processing

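Of 328 recomputed counts and summary values, 305 stayed the same, 17 were lower, 5 were higher and 1, a median tau, moved. Here the same means an equal count or one within 1.5 times, or a median tau that moved by less than its SD over mice. A count taken as the same can thus hide a call gained or lost. Of 459 recomputed fold changes of single members, 419 kept their direction and their side of the threshold, 37 lost a call, 1 gained a call and 2 changed sign. With the mouse as a replicate block, 3 members were called between WT EDL and soleus in place of 1, and no other count of members called moved by over 1.5 times. With no filter on low counts, 2 members were called between WT EDL and tibialis, and 5 each between KO gastrocnemius and tibialis and between KO soleus and tibialis, where 3 each were called with the filter. The median tau was 0.769 on log2(CPM + 1). Leaving out each mouse in turn gave 0 to 2 members called for WT EDL against soleus, 1 to 3 for WT gastrocnemius against soleus, 1 to 2 for WT soleus against tibialis, 1 to 2 for KO EDL against gastrocnemius, 2 to 3 for KO EDL against soleus and 0 to 1 for KO EDL against tibialis. The log2 difference of Tbx3 between WT EDL and soleus, which was not called, reached 0.079 when WT mouse 3793543 was left out and 0.01 when WT mouse 3805657 was, and at its lowest was -0.26. The cause was not tested. Of the WT muscle calls, those of Tbx3 and Emx2 between EDL and gastrocnemius, of Tbx3 between EDL and tibialis, gastrocnemius and soleus, and soleus and tibialis, and of Emx2 and Tbx4 between gastrocnemius and tibialis held under every alternative run. In an alternative chosen after seeing the data, the soleus relations of Emx2, Tbx18 and Tbx3 to the slow fibre sum lost their Pearson calls without KO mouse 3805666 (r of 0.781, 0.675 and 0.668). Spearman rho of Emx2 was 0.917 there (exact permutation p = 0.00131, unadjusted). Depth limits Pitx1, Emx2 in gastrocnemius and Tbx5 outside heart and lung, which rest on few reads.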
